A study of Rattus norvegicus with 12 samples.

Results

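Ionotropic and metabotropic receptors for glutamate and GABA carry most fast and much of the slow synaptic signalling of the cortex, and their subunit genes are described here across 4 groups of rat cortex libraries. Genes were chosen by symbol alone. Chosen symbols started with Gria, Grik, Grin, Grm or Gabbr and a digit, or were Grid and a digit alone. Symbols starting with Gabr were taken for subunits a, b, d, e, g, p, q and r. The choice took 45 of 17268 genes in the count table, of which 25 encode glutamate receptor subunits and 20 encode GABA receptor subunits. They comprise 3 AMPA, 7 NMDA, 5 kainate, 2 delta and 8 metabotropic glutamate (mGlu) receptor genes, with 18 GABA-A and 2 GABA-B receptor genes. Gria3 was not analysed here.

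RNA was measured by sequencing in cerebral cortex of adult male Sprague Dawley rats, with 3 libraries in each group. The Sham group was operated without a clot, and the Model group had a thromboembolic stroke, in which a blood clot was placed in the middle cerebral artery. The rt-PA group had the same stroke and received rt-PA, the clot-dissolving recombinant tissue plasminogen activator, at 6 h. The rt-PA+Acu group had the stroke, XingNaoKaiQiao acupuncture at 2 h at the points Shuigou (GV26) and Neiguan (PC6), and rt-PA at 6 h. No group received acupuncture without rt-PA, so an effect of acupuncture alone cannot be told apart from its combination with rt-PA. The time of tissue collection for RNA is not given in the sources used. The labels number libraries within a group and do not state that each came from its own rat, so p-values measure the spread between these libraries.

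Glutamate opens AMPA, kainate and NMDA receptor channels, each an assembly of subunits, and the subunits set how fast a channel closes and whether calcium passes. The mGlu receptors act through G proteins, those of group I mostly excite postsynaptic cells, and those of groups II and III mostly hold back transmitter release. GABA opens the chloride channel of GABA-A receptors, with delta-containing receptors found outside synapses, and acts on GABA-B receptors through G proteins.

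Total counts per library lay between 11678450 and 13616935. Values are given as CPM, which are counts scaled to library size after TMM correction for composition, and levels are not compared between genes because transcript lengths were not at hand. Model replicate 3 stood apart from the other Model libraries for some genes. Rpl39, a ribosomal protein gene, had 9.86, 11.6 and 9.17 CPM in Sham, 60.5, 63.2 and 11.7 in Model, 66.5, 71.00 and 59.4 in rt-PA and 53.5, 42.5 and 53.7 in rt-PA+Acu, which puts Model replicate 3 with the Sham libraries and apart from the other 8. Among markers of the labelled tissue, the cortical neuron genes Slc17a7 and Tbr1 were detected in all 12 libraries. Markers of striatal neurons were higher in Sham replicates 2 and 3 than elsewhere, with a summed level of 394, 1135 and 868 CPM in Sham, 233, 240.2 and 324 in Model, 185, 261 and 278 in rt-PA and 348, 299 and 249.9 in rt-PA+Acu.

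Most receptor transcripts were lower in Model than in Sham cortex, and many were higher in cortex given both treatments than after rt-PA alone. Of 41 receptor genes tested in Model vs Sham, called the stroke comparison below, 28 fell, against 26.6% of all genes, and 5 rose, against 27.3% of all genes. A gene was called when its p from edgeR's quasi-likelihood test, after Benjamini-Hochberg adjustment over all genes, was under 0.05. The median log2 fold change of the receptor genes was -0.73, and that of all genes tested was 0.01. With a change of over 2-fold required as well, 16 were called, against 21.5% of all genes. When rt-PA+Acu was compared with rt-PA, called the acupuncture comparison below, 25 of 42 receptor genes tested rose, against 17.0% of all genes, and 2 fell, against 17.7%. Leaving out 1 library at a time gave 15 to 27 genes that rose of 43 tested. Over 2-fold changes were called for 15, against 15.3% of all genes. The median log2 fold change of the 42 receptor genes tested was 0.79, and that of all genes was -0.003. In bulk tissue, fewer cells of a type and less RNA per cell cannot be told apart. Gabra6, Gabrp and Gabrr3 had too few counts to be tested in any comparison, and 40 of the 45 genes had a mean of at least 1 CPM.

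**Figure D1:**
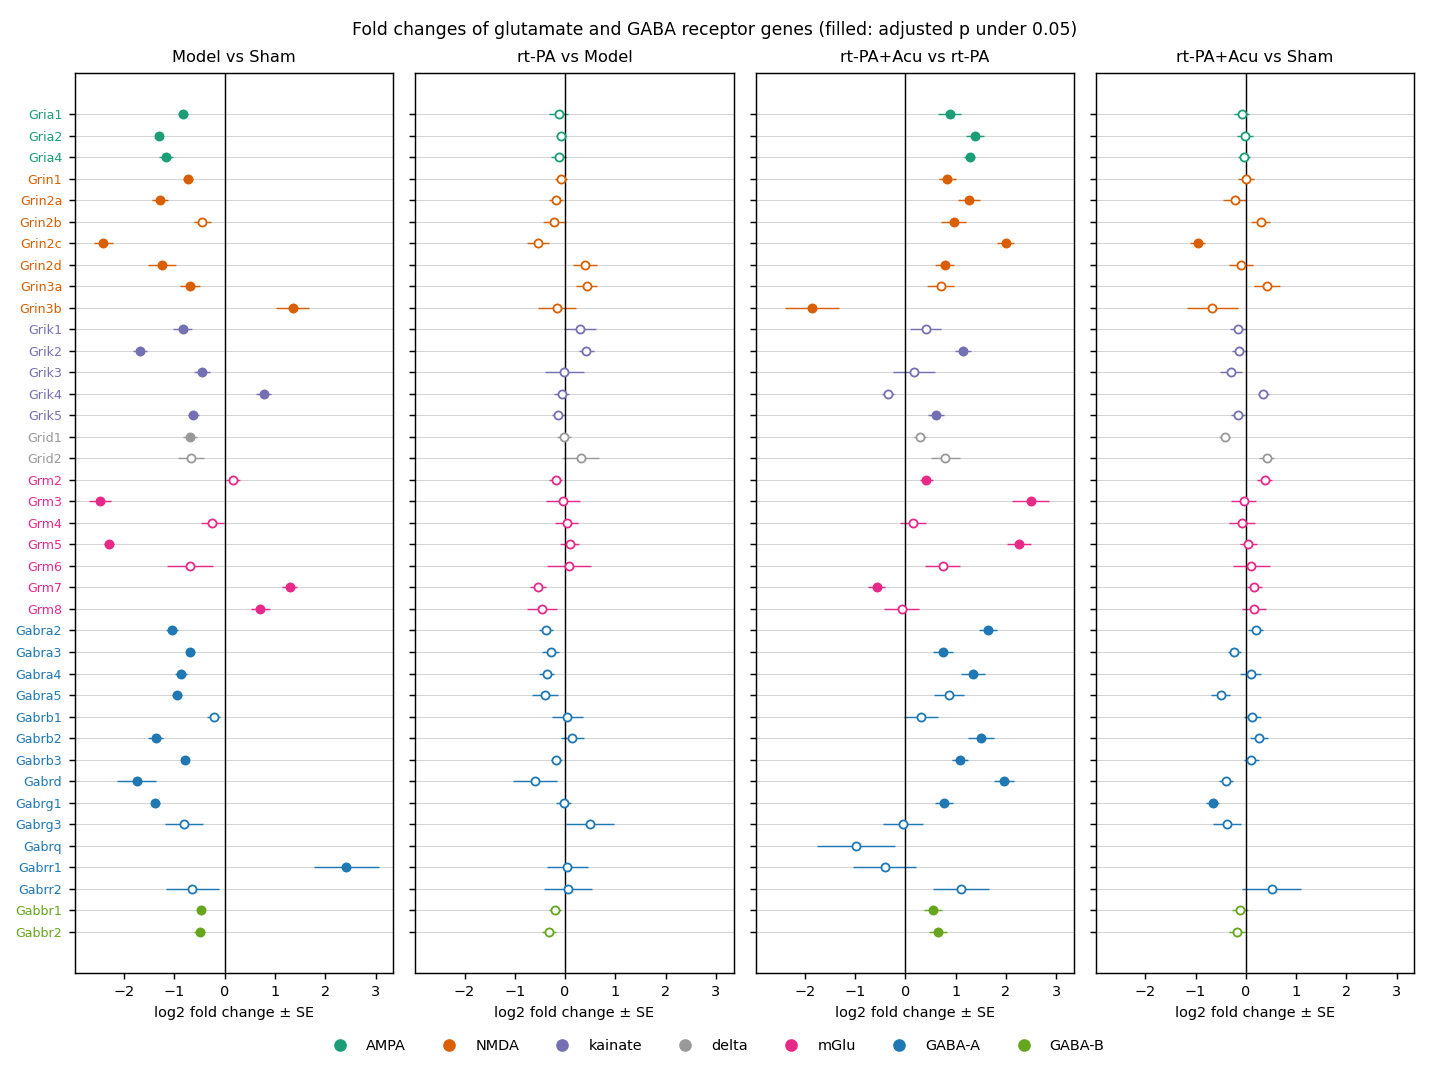
Log2 fold changes with standard errors (horizontal axis) of receptor genes tested (vertical axis, coloured by receptor family) in the 4 comparisons. Filled points had an adjusted p under 0.05, and they lie mostly left of 0 in Model vs Sham, mostly right of 0 in the third panel, and are absent in rt-PA vs Model.

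RefSeq promoters of 300 bases (250 before to 50 after the gene start, build GRCr8) were at hand for 29 of the 45 genes. They are shown for 5 genes whose transcripts moved together or apart, with Gria4, Grin2c, Grm5 and Gabrd among those that fell in Model and Grm7 among those that rose. Capitals mark matches on either strand to the CRE (TGACGTCA), the AP-1 motif (TGANTCA), the GC box (GGGCGG), the E-box (CANNTG) or the EGR motif (GCGNGGGCG), and marked motifs may overlap.
Gria4 (chr8:10319832-10320131, minus strand): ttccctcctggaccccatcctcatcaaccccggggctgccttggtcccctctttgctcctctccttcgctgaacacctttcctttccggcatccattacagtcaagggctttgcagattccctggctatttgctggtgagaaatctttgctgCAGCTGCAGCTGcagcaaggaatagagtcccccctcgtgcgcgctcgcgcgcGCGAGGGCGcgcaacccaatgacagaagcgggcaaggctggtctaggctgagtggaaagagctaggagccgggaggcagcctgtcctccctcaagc
Grin2c (chr10:101005089-101005388, minus strand): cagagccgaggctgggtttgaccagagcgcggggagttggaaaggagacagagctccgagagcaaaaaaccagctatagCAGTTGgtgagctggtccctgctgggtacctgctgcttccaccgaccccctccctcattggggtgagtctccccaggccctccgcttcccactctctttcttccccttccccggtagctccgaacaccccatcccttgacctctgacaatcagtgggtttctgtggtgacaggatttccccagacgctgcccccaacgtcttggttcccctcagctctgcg
Grm5 (chr1:150733503-150733802, plus strand): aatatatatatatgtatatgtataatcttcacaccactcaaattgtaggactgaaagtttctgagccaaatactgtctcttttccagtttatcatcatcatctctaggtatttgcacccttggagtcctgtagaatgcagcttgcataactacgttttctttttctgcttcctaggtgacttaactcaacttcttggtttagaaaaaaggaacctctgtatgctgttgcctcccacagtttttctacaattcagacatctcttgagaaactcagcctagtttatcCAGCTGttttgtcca
Grm7 (chr4:145286476-145286775, plus strand): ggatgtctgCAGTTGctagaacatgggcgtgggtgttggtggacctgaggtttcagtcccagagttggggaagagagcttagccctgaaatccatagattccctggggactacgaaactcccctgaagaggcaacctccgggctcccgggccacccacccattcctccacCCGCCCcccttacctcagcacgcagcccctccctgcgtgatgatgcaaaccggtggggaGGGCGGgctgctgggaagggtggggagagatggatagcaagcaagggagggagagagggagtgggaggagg
Gabrd (chr5:171252660-171252959, minus strand): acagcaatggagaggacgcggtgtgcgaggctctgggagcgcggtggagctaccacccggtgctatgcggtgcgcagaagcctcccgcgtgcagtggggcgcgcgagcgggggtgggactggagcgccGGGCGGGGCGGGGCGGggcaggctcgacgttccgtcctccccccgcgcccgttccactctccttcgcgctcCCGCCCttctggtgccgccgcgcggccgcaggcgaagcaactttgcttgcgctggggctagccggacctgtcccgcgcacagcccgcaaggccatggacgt

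Neither the CRE nor the AP-1 motif occurred in the 29 receptor promoters, and they occurred in 1.83% and 7.33% of all 33469 promoters. A GC box was present in 11 of the 29 (37.9%, against 33.1% of all promoters), an E-box in 19 (65.5%, against 72.1%) and the EGR motif in 3 (10.3%, against 4.98%). The 3 promoters with the EGR motif were those of Gria4, Gabra4 and Grin1. Of the promoters shown, that of Gabrd held 4 GC boxes, that of Grm7 held 2 GC boxes and 1 E-box, and those of Grin2c and Grm5 held 1 E-box each.

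AMPA receptors carry the fast excitatory current, and all 3 of their genes in the table fell in Model vs Sham and rose in the acupuncture comparison. Gria1, the GluA1 subunit added to synapses during plasticity, had 183, 180.2 and 175 CPM in Sham, 108, 106 and 87.6 in Model, 68.8, 115 and 92.5 in rt-PA and 134, 209.6 and 165 in rt-PA+Acu. Gria2, the GluA2 subunit that keeps calcium out of the channel, had 1094, 1040.2 and 1043 CPM in Sham, 434, 429 and 408 in Model, 441, 374 and 388 in rt-PA and 1098, 1234 and 809 in rt-PA+Acu. Gria4, the GluA4 subunit of fast channels in interneurons, had 169, 147 and 160.3 CPM in Sham, 59.98, 63.6 and 86.2 in Model, 61.6, 61.5 and 68.5 in rt-PA and 173, 152 and 140.1 in rt-PA+Acu. At each of the 3 genes every Model and rt-PA library lay below every Sham and every rt-PA+Acu library, and the Sham and rt-PA+Acu libraries overlapped. In Model vs Sham the log2 fold change (± SE) was -0.83 ± 0.10 for Gria1, -1.31 ± 0.08 for Gria2 and -1.17 ± 0.14 for Gria4, with Benjamini-Hochberg adjusted p in edgeR's quasi-likelihood test of 0.00031, 1.38e-05 and 0.000287. Under the acupuncture comparison it was 0.88 ± 0.22, 1.38 ± 0.17 and 1.28 ± 0.12, with adjusted p of 0.0207, 0.0021 and 0.00112 in edgeR's quasi-likelihood test, adjusted by Benjamini-Hochberg. The latter call of Gria1 was lost without rt-PA replicate 1 or 3 or rt-PA+Acu replicate 2.

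NMDA receptors pass calcium when glutamate and a co-agonist bind to a depolarised cell. Of their 7 genes, 5 fell, Grin3b rose and Grin2b was not called in Model vs Sham. Grin1, the subunit that every NMDA receptor needs, had 473, 438 and 511 CPM in Sham, 257, 274 and 318 in Model, 236, 284 and 281 in rt-PA and 475, 571 and 380.0 in rt-PA+Acu. Grin2a, the GluN2A subunit of mature synapses, had 154, 139 and 183 CPM in Sham, 74.9, 65.4 and 53.1 in Model, 53.7, 55.6 and 60.99 in rt-PA and 137, 179 and 92.4 in rt-PA+Acu. Grin2b, the GluN2B subunit that prevails early in development, had 92.6, 65.7 and 90.8 CPM in Sham, 70.1, 61.04 and 50.5 in Model, 36.7, 53.2 and 66.7 in rt-PA and 83.8, 130.1 and 91.5 in rt-PA+Acu. Grin1 and Grin2a were lower in each Model and rt-PA library than in each Sham library, whereas Sham and Model overlapped at Grin2b. Grin2c, the GluN2C subunit found in cerebellum and in glia, had 97.7, 136 and 99.7 CPM in Sham, 15.8, 21.8 and 24.5 in Model, 14.00, 11.6 and 17.2 in rt-PA and 61.4, 58.1 and 51.9 in rt-PA+Acu. Its Model and rt-PA libraries lay far below the others, and each rt-PA+Acu library stayed below each Sham library. Grin3b, a glycine-binding subunit, was scarce, with 1.697, 1.99 and 1.05 CPM in Sham, 4.43, 4.31 and 3.39 in Model, 4.09, 1.86 and 4.86 in rt-PA and 0.93, 0.44 and 1.57 in rt-PA+Acu. Its Model libraries were above the Sham libraries, and its rt-PA+Acu libraries were below the rt-PA libraries.

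In Model vs Sham the log2 fold change was -0.73 ± 0.10 for Grin1 (adjusted p = 0.000611), -1.29 ± 0.15 for Grin2a (0.000258), -2.42 ± 0.19 for Grin2c (4.1e-05) and 1.35 ± 0.33 for Grin3b (0.00863), by edgeR's quasi-likelihood test, adjusted by Benjamini-Hochberg. For Grin2b it was -0.45 ± 0.17, with an adjusted p of 0.0512 in edgeR's quasi-likelihood test, adjusted by Benjamini-Hochberg. DESeq2 did call it as lower. For the acupuncture comparison, Grin1 (0.83 ± 0.17), Grin2a (1.26 ± 0.22), Grin2b (0.96 ± 0.25), Grin2c (1.999 ± 0.17) and Grin2d (0.78 ± 0.19), a subunit of interneurons, rose on the log2 scale and Grin3b fell (-1.85 ± 0.54). The calls of Grin3b and Grin2d were lost without rt-PA replicate 1 or 3 and without rt-PA+Acu replicate 1 or 2, and that of Grin2b without rt-PA replicate 1 or rt-PA+Acu replicate 2.

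Kainate receptors modulate transmitter release and network excitability, and 4 of their 5 genes fell in Model while Grik4 rose. Of these calls, that of Grik3 was lost with library sizes alone, with 1 fit over 12 libraries and with a replicate block. It was also lost without any 1 of the Sham libraries or Model replicate 1. Grik1, the GluK1 subunit of interneurons, had 18.7, 19.5 and 15.98 CPM in Sham, 7.94, 10.1 and 12.2 in Model, 8.11, 18.1 and 10.7 in rt-PA and 19.1, 16.2 and 13.4 in rt-PA+Acu. Grik2, the GluK2 subunit of most kainate channels, had 78.7, 73.9 and 62.4 CPM in Sham, 22.97, 24.4 and 19.00 in Model, 26.6, 32.99 and 29.3 in rt-PA and 70.6, 72.9 and 53.1 in rt-PA+Acu. Grik4, a high-affinity subunit that works only with the others, had 36.1, 29.5 and 36.2 CPM in Sham, 68.3, 51.5 and 53.3 in Model, 57.8, 46.8 and 59.96 in rt-PA and 43.9, 41.8 and 43.9 in rt-PA+Acu. Grik2 was lower in each Model and rt-PA library than in each Sham and rt-PA+Acu library, whereas at Grik1 rt-PA replicate 2 reached the rt-PA+Acu libraries. Grik4 was the reverse, with each Model and rt-PA library above each Sham library. The log2 fold change in Model vs Sham was -0.83 ± 0.19 for Grik1, -1.69 ± 0.14 for Grik2 and 0.78 ± 0.14 for Grik4, with adjusted p of 0.00628, 4.34e-05 and 0.00236 in edgeR's quasi-likelihood test, adjusted by Benjamini-Hochberg. For the acupuncture comparison, Grik2 (1.14 ± 0.15) and Grik5 (0.61 ± 0.16), a partner subunit of GluK2, rose, and Grik4 (-0.34 ± 0.13) was not called. The call of Grik5 was lost with a replicate block and without rt-PA replicate 2 or 3 or rt-PA+Acu replicate 1 or 2. Of the delta receptor genes, which bind cerebellins rather than open to glutamate, Grid1 fell in Model (-0.69 ± 0.13) and neither was called in the acupuncture comparison.

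The mGlu receptor genes Grm3 and Grm5 were, with Grin2c, among the receptor genes with the largest falls in Model vs Sham. Grm5, the main postsynaptic group I receptor of the forebrain, had 181, 177 and 173 CPM in Sham, 31.97, 37.9 and 37.4 in Model, 29.2, 48.8 and 36.2 in rt-PA and 162, 237 and 149 in rt-PA+Acu. Grm3, a group II receptor of neurons and astrocytes, had 118, 136 and 141 CPM in Sham, 15.5, 30.8 and 24.6 in Model, 13.7, 31.1 and 23.6 in rt-PA and 174, 133 and 77.8 in rt-PA+Acu. At both genes the Model and rt-PA libraries were below every Sham and every rt-PA+Acu library, and Grm3 ranged more widely among rt-PA+Acu libraries, with replicate 3 lowest. In Model vs Sham the log2 fold change was -2.297 ± 0.10 for Grm5 and -2.47 ± 0.22 for Grm3, with adjusted p of 4.31e-06 and 6.82e-05 in edgeR's quasi-likelihood test, adjusted by Benjamini-Hochberg. Under the acupuncture comparison it was 2.26 ± 0.24 and 2.49 ± 0.37, with adjusted p of 0.00141 and 0.00362 in edgeR's quasi-likelihood test, adjusted by Benjamini-Hochberg.

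Some other mGlu receptors did not share this fall. Grm2, the presynaptic group II receptor, had 43.2, 53.3 and 39.04 CPM in Sham, 43.7, 51.7 and 55.2 in Model, 41.3, 42.8 and 47.6 in rt-PA and 56.7, 67.5 and 51.8 in rt-PA+Acu, and its Sham and Model libraries overlapped. Grm7, a presynaptic group III receptor of low affinity for glutamate, had 37.02, 32.8 and 34.8 CPM in Sham, 88.5, 98.2 and 67.2 in Model, 65.1, 55.8 and 53.1 in rt-PA and 45.4, 41.7 and 30.5 in rt-PA+Acu. Each Model library of Grm7 was above each library of the other 3 groups, and the Sham and rt-PA+Acu libraries overlapped. Grm7 rose in Model (1.29 ± 0.15, adjusted p = 0.000216) and fell in the acupuncture comparison (-0.57 ± 0.17, adjusted p = 0.0338) in edgeR's quasi-likelihood test, adjusted by Benjamini-Hochberg. The latter call was lost on leaving out any of the rt-PA libraries or rt-PA+Acu replicate 2. Grm8, a related group III receptor, also rose in Model (0.71 ± 0.20), a call lost without Sham replicate 1 or 2 or Model replicate 2 and with 1 fit over 12 libraries, and Grm4 and Grm6 were not called in any comparison.

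**Figure D2:**
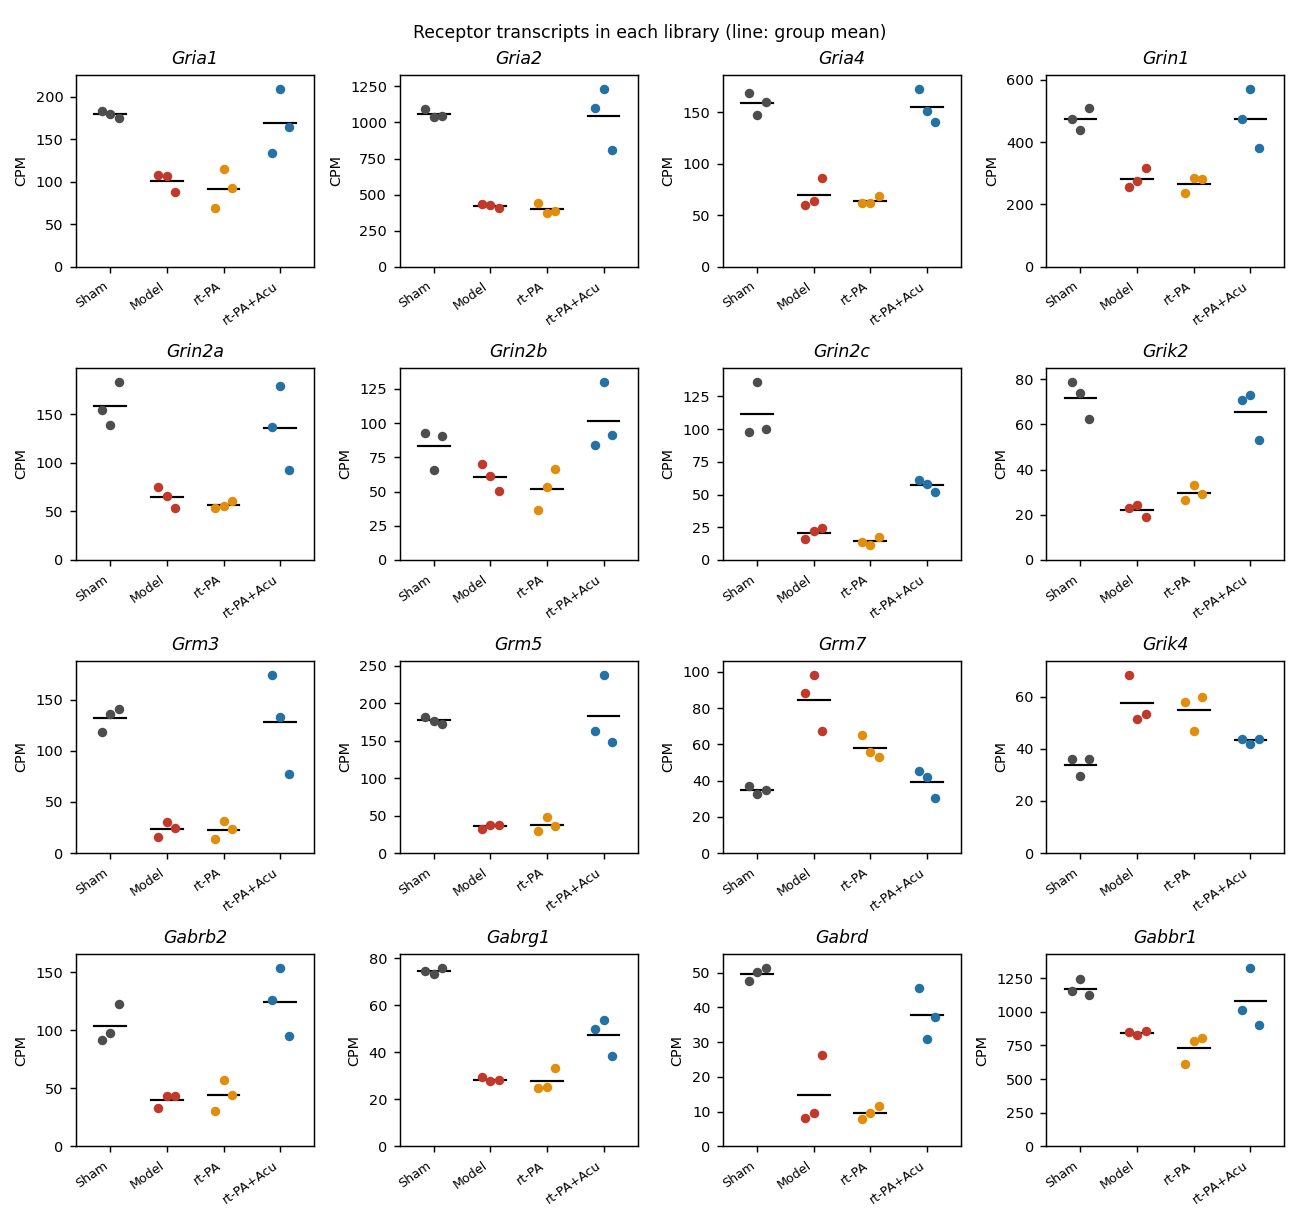
CPM (vertical axis, from 0) of 16 receptor genes in each of the 12 libraries, with points for libraries grouped along the horizontal axis and lines at group means. Model and rt-PA libraries lie low for most genes, and Grm7 and Grik4 show the reverse order.

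GABA-A receptors are chloride channels of 5 subunits, and 10 of the 14 genes tested fell in Model while Gabrr1 rose. Gabrb2, a beta subunit of synaptic receptors, had 92.1, 97.4 and 122 CPM in Sham, 32.7, 43.5 and 43.6 in Model, 30.2, 57.2 and 44.5 in rt-PA and 126, 154 and 94.8 in rt-PA+Acu, and every Model and rt-PA library was below every Sham and every rt-PA+Acu library. Gabrd, the delta subunit of receptors outside synapses, had 47.6, 50.3 and 51.3 CPM in Sham, 8.01, 9.72 and 26.4 in Model, 7.97, 9.47 and 11.7 in rt-PA and 45.5, 30.9 and 37.2 in rt-PA+Acu. Model replicate 3 was nearer to the Sham libraries than the other Model libraries were, and without it the log2 fold change in Model vs Sham went from -1.75 ± 0.39 to -2.47. Gabrg1, a gamma subunit also found in glia, had 74.4, 73.2 and 75.8 CPM in Sham, 29.3, 27.9 and 28.1 in Model, 24.9, 25.2 and 33.4 in rt-PA and 49.7, 53.8 and 38.3 in rt-PA+Acu. Its Model and rt-PA libraries were below the rt-PA+Acu libraries, which were below the Sham libraries.

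In Model vs Sham the log2 fold change was -1.37 ± 0.15 for Gabrb2 and -1.38 ± 0.09 for Gabrg1, with adjusted p of 0.000187 and 1.74e-05, and 0.00531 for Gabrd, in edgeR's quasi-likelihood test, adjusted by Benjamini-Hochberg. In the acupuncture comparison, 9 of 15 GABA-A genes tested rose, among them Gabrd (1.96 ± 0.21), Gabra2 (1.64 ± 0.17), an alpha subunit of the axon initial segment, and Gabrb2 (1.504 ± 0.26). Gabra5, an alpha subunit of receptors outside synapses, fell in Model (-0.95 ± 0.11) and had a log2 fold change of 0.87 ± 0.30 that was not called in the acupuncture comparison. Gabrr1, a rho subunit known from retina, lay below 1 CPM in every Sham library, and its call was lost without Sham replicate 2.

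GABA-B receptors need both of their subunits, and both genes fell in Model vs Sham and rose in the acupuncture comparison. Gabbr1, which binds GABA, had 1151, 1242 and 1122 CPM in Sham, 848, 825 and 853 in Model, 612, 781 and 806 in rt-PA and 1013, 1323 and 899.8 in rt-PA+Acu. Gabbr2, which couples to the G protein, had 524, 456 and 449 CPM in Sham, 326, 303 and 378 in Model, 233, 259 and 316 in rt-PA and 388, 528 and 351 in rt-PA+Acu. Each Model and rt-PA library was below each Sham library, and at both genes the rt-PA+Acu libraries overlapped the Sham libraries. The log2 fold change was -0.47 ± 0.08 and -0.49 ± 0.11 in Model vs Sham and 0.56 ± 0.18 and 0.65 ± 0.19 in the acupuncture comparison, where the Benjamini-Hochberg adjusted p of 0.048 and 0.0311 in edgeR's quasi-likelihood test lay close to the threshold. Both of the latter calls were lost with a replicate block and on leaving out replicate 1 or 2 of either rt-PA or rt-PA+Acu, and that of Gabbr1 also on leaving out rt-PA replicate 3, with library sizes alone and with no filter.

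Treatment with rt-PA alone was compared with Model to ask what thrombolysis at 6 h added. None of the 41 receptor genes tested was called, against 0% of all genes, in edgeR's quasi-likelihood test, adjusted by Benjamini-Hochberg, and the lowest adjusted p among them was 0.366. At an unadjusted p under 0.05 there were 6, among them Gabra2, Gabra4, Grik2, Grin2c and Grm7, against 9.92% of all genes. DESeq2 called 0 of 39 receptor genes that it gave an adjusted p, against 1.54% of all genes. Log2 fold changes of the receptor genes had a median of -0.08. A p that misses the threshold does not show that the groups were alike.

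The stroke and acupuncture comparisons share no library, and they can be set beside each other. Of the 28 receptor genes that fell in Model, 23 rose in the acupuncture comparison, which is 82.1% of those 28 and 92% of the 25 that rose. Over all genes, 1894 of the 3432 that fell in Model (55.2%) rose in the acupuncture comparison, and they made up 85.5% of the 2216 that rose there. The other 5, Gabra5, Grid1, Grik1, Grik3 and Grin3a, had a log2 fold change above 0 but were not called. Grin2b and Grm2 rose in the acupuncture comparison without a call in Model, and of the 5 genes that rose in Model, Grin3b and Grm7 fell. At 20 of the 25 genes that rose, rt-PA+Acu replicate 3 was the lowest rt-PA+Acu library, as it was at 68.8% of all genes that rose. Without rt-PA replicate 1, 16 of the 27 calls were kept, and without rt-PA+Acu replicate 2, 15 were kept, with Gabbr1, Gabbr2, Gabra3, Gabrg1, Gria1, Grin2b, Grin2d, Grin3b, Grm2 and Grm7 among those lost in both cases and Grik5 lost in the latter. Calls over all genes went from 4522 to 2694 and 2496 in these cases. In the stroke comparison, calls lost on leaving out 1 library included those of Grik3, Grm8, Gabrr1 and Grin3a.

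**Figure D3:**
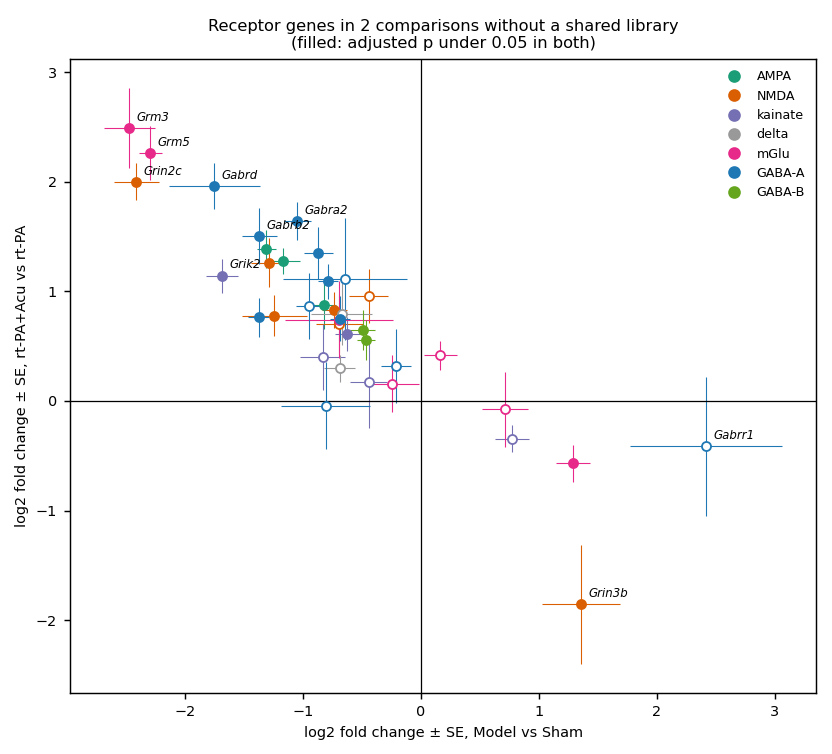
Log2 fold changes with standard errors of receptor genes in Model vs Sham (horizontal axis) and in rt-PA+Acu against rt-PA (vertical axis), coloured by family and filled where both adjusted p were under 0.05. Genes that fell in the first and rose in the second lie in the upper left.

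When the acupuncture group was compared with Sham, to ask how near to it the receptors were, 2 of 40 receptor genes tested were called. None of the 40 changed over 2-fold with a call, against 2.06% of all genes. Both called genes were lower, against 3.40% of all genes, and none was higher, against 1.70% of all genes, where edgeR counted 8 receptor genes at an unadjusted p under 0.05, against 23.2% of all genes, and DESeq2 called 3, against 11.2%. The log2 fold change was -0.96 ± 0.14 for Grin2c and -0.66 ± 0.13 for Gabrg1, with adjusted p of 0.013 and 0.0309 in edgeR's quasi-likelihood test, adjusted by Benjamini-Hochberg. The call of Gabrg1 was lost with a replicate block. That call was also lost on leaving out any Sham library, where the log2 fold change of Gabrg1 was -0.66, -0.67 and -0.64. Without rt-PA+Acu replicate 1, 4 of 41 receptor genes tested were called, 3 lower and 1 higher, while calls over all genes went from 651 to 856. The median log2 fold change of the receptor genes was -0.03, and that of all genes was 0.02.

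Ratios of counts within a library need no scaling between libraries, and 5 ratios, of which 3 are given, were compared in the 4 comparisons with an exact two-sided permutation test, for which 3 libraries against 3 allow no p under 0.1. The Grin2a to Grin2b ratio, which rises as NMDA receptors mature, was 1.66, 2.12 and 2.02 in Sham, 1.07, 1.07 and 1.05 in Model, 1.46, 1.04 and 0.91 in rt-PA and 1.63, 1.38 and 1.01 in rt-PA+Acu. All Model libraries were below all Sham libraries, with a log2 difference of -0.85 (exact permutation p = 0.1, adjusted over 20 tests 0.333), and all rt-PA+Acu libraries were below all Sham libraries as well, with -0.55 (exact permutation p = 0.1, adjusted 0.333). The Gria1 to Gria2 ratio, which bears on how calcium-permeable AMPA receptors can be, was 0.17, 0.17 and 0.17 in Sham, 0.25, 0.25 and 0.21 in Model, 0.16, 0.31 and 0.24 in rt-PA and 0.12, 0.17 and 0.20 in rt-PA+Acu. It was higher in each Model than in each Sham library, by 0.48 on the log2 scale (exact permutation p = 0.1, adjusted 0.333). The Gabbr1 to Gabbr2 ratio overlapped between groups in all 4 comparisons.

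**Figure D4:**
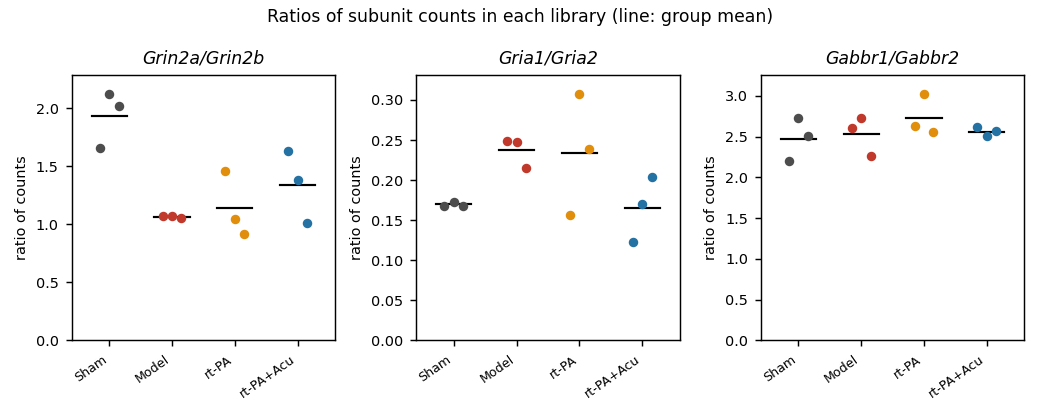
Ratios of counts of 3 subunit pairs (vertical axis, from 0) in each library, with points for libraries grouped along the horizontal axis and lines at group means. Grin2a to Grin2b is on average highest in Sham, and Gabbr1 to Gabbr2 overlaps between groups in each comparison.

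Receptors work with auxiliary, scaffold and ligand proteins, and 42 genes of such proteins were listed. In the stroke comparison 16 of 41 tested fell, against 26.6% of all genes, and 6 rose, against 27.3%, and in the acupuncture comparison 13 of 41 rose, against 17.0%, and 4 fell, against 17.7%. Of the 17 AMPA receptor partners tested, 9 fell in the stroke comparison. Cnih2, a cornichon that slows AMPA channel closing, had 169, 199.8 and 176 CPM in Sham, 52.6, 46.6 and 55.7 in Model, 36.9, 50.1 and 34.1 in rt-PA and 87.2, 123 and 72.9 in rt-PA+Acu, and Gsg1l, which dampens AMPA currents, had 27.97, 33.98 and 26.8 CPM in Sham, 6.87, 5.92 and 11.9 in Model, 6.31, 8.03 and 6.92 in rt-PA and 16.3, 15.3 and 12.5 in rt-PA+Acu. At both genes each Model and rt-PA library was below each rt-PA+Acu library, and these were below each Sham library. Kctd8, a GABA-B receptor partner, had the largest fall of the list at a mean of at least 1 CPM (-2.201 ± 0.36 on the log2 scale).

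Among the 6 that rose in Model, Nptx2 and Cbln1 had the largest log2 fold changes. Nptx2, a pentraxin that clusters AMPA receptors and is induced by activity, had 70.1, 62.99 and 87.6 CPM in Sham, 1288, 1364 and 1201 in Model, 366, 322 and 545 in rt-PA and 55.7, 42.4 and 84.96 in rt-PA+Acu. Cbln1, the cerebellin ligand of delta receptors, had 9.46, 12.02 and 9.35 CPM in Sham, 301, 185 and 111 in Model, 164, 115 and 145 in rt-PA and 13.97, 4.88 and 24.9 in rt-PA+Acu. Each Model library was above each library of every other group at Nptx2, and at both genes each Model and rt-PA library was above each Sham and rt-PA+Acu library. Log2 fold changes in Model vs Sham were 4.14 ± 0.14 for Nptx2, 4.28 ± 0.36 for Cbln1, 1.71 ± 0.18 for Homer3, a scaffold of group I mGlu receptors, and 1.51 ± 0.12 for Cacng4, an AMPA receptor partner. In the acupuncture comparison these 4 fell, with log2 fold changes of -2.75 ± 0.31, -3.27 ± 0.49, -1.64 ± 0.18 and -1.72 ± 0.31, and Cacng3, a partner of AMPA receptors (1.904 ± 0.25), Frrs1l, an assembly factor of AMPA receptors (1.48 ± 0.22), and Kctd8 (1.36 ± 0.36) rose. The call of Kctd8 there was lost without rt-PA+Acu replicate 1 or 2 and with a replicate block.

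In rt-PA+Acu vs Sham, 3 of 41 auxiliary genes tested fell, against 3.40% of all genes, and 1 rose, against 1.70%. Gsg1l (-1.01 ± 0.15), Cnih2 (-0.95 ± 0.18) and Homer1 (-0.51 ± 0.12), a scaffold of mGlu receptors, fell and Gphn rose (1.05 ± 0.09). Their adjusted p were 0.013, 0.0287, 0.0486 and 0.00188 in edgeR's quasi-likelihood test, adjusted by Benjamini-Hochberg. The call of Gphn was kept under every alternative. That of Gsg1l was lost on leaving out Sham replicate 2, that of Cnih2 on leaving out any Sham library or rt-PA+Acu replicate 1, and that of Homer1 on leaving out any library except rt-PA+Acu replicate 3, and also with library sizes alone, with 1 fit over 12 libraries and with a replicate block. Gphn, the gephyrin that anchors GABA-A receptors, had 41.9, 43.4 and 42.3 CPM in Sham, 120.3, 122 and 54.5 in Model, 92.1, 98.7 and 110.2 in rt-PA and 93.9, 84.2 and 87.1 in rt-PA+Acu, so that Model replicate 3 stood between the Sham libraries and the other 8. Without it the log2 fold change of Gphn in Model vs Sham went from 1.23 ± 0.27 to 1.52. At Rpl39, as at Gphn, every rt-PA+Acu library was above every Sham library. The alternatives therefore cannot tell this library difference apart from the groups compared. The part of this library difference in the receptor results was not tested further. Without Model replicate 3 all 33 receptor genes called in Model vs Sham were kept. The Model libraries then left all stood apart from Sham at Rpl39 and Gphn. Leaving it out therefore cannot tell the library difference apart from the group difference.

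**Figure D5:**
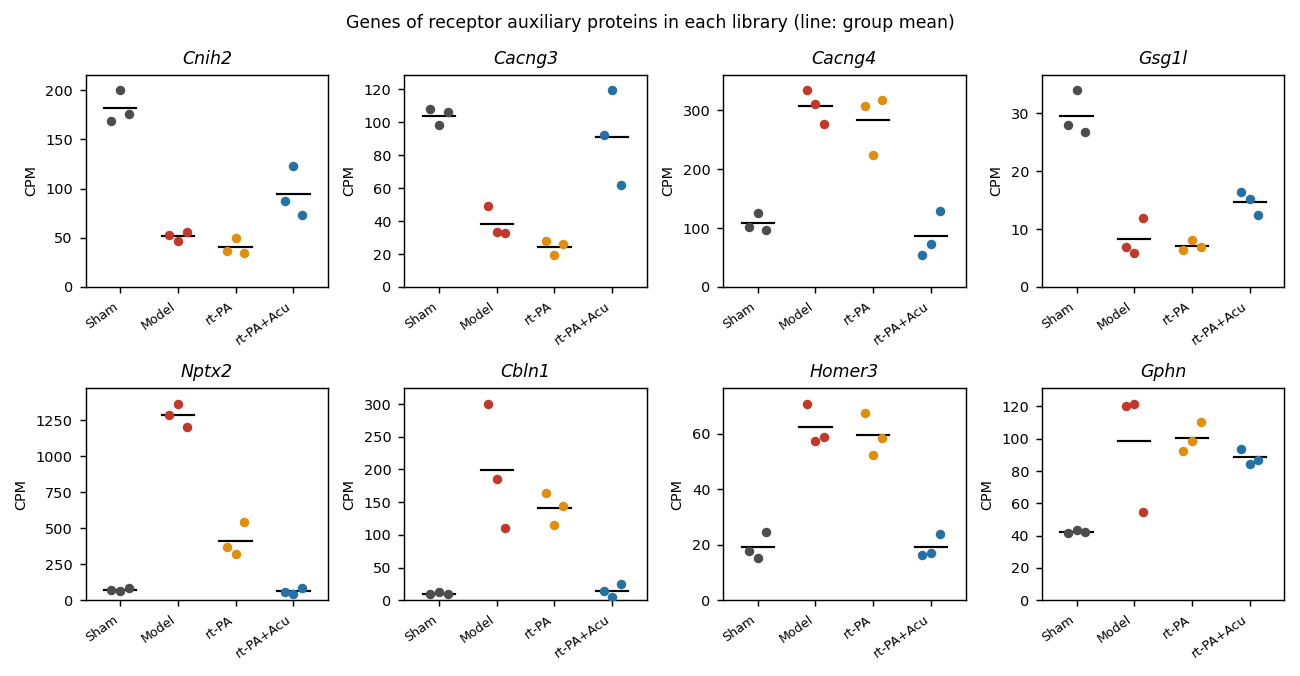
CPM (vertical axis, from 0) of 8 genes of receptor partner proteins in each library, with points for libraries grouped along the horizontal axis and lines at group means. Nptx2, Cbln1, Homer3 and Cacng4 are high in Model and rt-PA, and Gphn is low in Sham.

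Markers of the cells that carry these receptors were counted as well. Of all genes, 26.6% fell and 27.3% rose in Model vs Sham, and 17.0% rose and 17.7% fell in the acupuncture comparison. Of 7 glutamatergic neuron markers, 6 fell and 1 rose in Model vs Sham and 6 rose in the acupuncture comparison, with a summed level, led by Camk2a, of 4748, 4390.3 and 4496 CPM in Sham, 1488, 1394 and 1647 in Model, 967, 1314 and 1447 in rt-PA and 3550.3, 4058 and 2135 in rt-PA+Acu. Of 9 pan-neuronal markers, 3 fell and 2 rose in Model, and 3 rose and 1 fell in the acupuncture comparison, with a summed level, led by Snap25, of 7131, 7075 and 7909 CPM in Sham, 6705, 6881 and 6847 in Model, 5525, 6662 and 6492 in rt-PA and 8773, 8461 and 5909 in rt-PA+Acu. Of 7 GABAergic neuron markers, Gad1 and Gad2, which make GABA, rose in Model and the other 5 were not called, and none was called in the acupuncture comparison. Their summed level, led by Gad1, was 732, 787 and 772 CPM in Sham, 1151, 1123 and 953 in Model, 921, 1040.5 and 1208 in rt-PA and 823, 927 and 999.6 in rt-PA+Acu.

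Markers of other cells differed in how they moved. Set beside them, 26.6% of all genes fell and 27.3% rose in Model vs Sham. In the acupuncture comparison 17.7% of all genes fell and 17.0% rose, and in rt-PA+Acu vs Sham 3.40% fell and 1.70% rose. Of 7 astrocyte markers, 6 fell in Model and Gfap rose, and 6 rose in the acupuncture comparison, with a summed level, led by Gfap, of 3881, 4596 and 4004 CPM in Sham, 4085, 5950.0 and 5186 in Model, 4584, 4539.9 and 5331 in rt-PA and 5717, 5353 and 7083 in rt-PA+Acu. Of 5 oligodendrocyte markers, 4 fell in Model and none was called in the acupuncture comparison, with a summed level, led by Mbp, of 11562, 14656 and 17371 CPM in Sham, 1561, 3580.4 and 8204 in Model, 2573, 11029 and 3168 in rt-PA and 20364, 8388 and 3026 in rt-PA+Acu. In the stroke comparison all 4 markers of oligodendrocyte precursors fell, 4 of 5 microglial markers fell and 1 rose, and all 5 monocyte and macrophage markers rose, as did 1 of 4 neutrophil markers tested. In the acupuncture comparison no precursor marker was called, 1 microglial marker rose and 1 fell, all 5 monocyte and macrophage markers fell, and 4 of 5 neutrophil markers fell. Endothelial markers gave 1 rise and 1 fall of 5 in Model and 4 falls of 5 in the acupuncture comparison, and 6 of 7 striatal markers fell in Model. In the acupuncture comparison 1 striatal marker rose. Of 2 thalamic markers tested, 1 rose and 1 fell in Model, and 1 fell in the acupuncture comparison, while the only cerebellar and choroid plexus markers tested, Fat2 and Kl, rose in Model and fell in the acupuncture comparison. In rt-PA+Acu vs Sham, where Grin2c, Gabrg1, Cnih2 and Gsg1l were lower, 5 of 7 striatal, 3 of 5 endothelial, 2 of 5 microglial, 1 of 4 precursor and 1 of 4 monocyte and macrophage markers tested fell, while the other 3 of the latter had a log2 fold change above 0 and were not called. Of astrocyte markers Gfap rose (2.900 ± 0.29) and Aldh1l1 fell (-0.895 ± 0.19), the latter call being lost on leaving out any Sham library or rt-PA+Acu replicate 2, with 1 fit over 12 libraries and with a replicate block, and of the pan-neuronal, glutamatergic and GABAergic markers Camk2a alone was called (-0.96 ± 0.22), a call lost on leaving out any library except rt-PA+Acu replicate 3 and with a replicate block. Cbln3, Ttr and Otx2 had at most 3 counts in any library. Red blood cell markers, Pvalb, Tac1 and Flt1 were not analysed here. The part of these cell types in the receptor results was not tested.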

How the data were processed

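Cortical RNA of 12 rat libraries (4 groups of 3) was sequenced as paired reads of 150 bases. The values deposited by the authors are raw whole-number counts per gene symbol, without normalization, and the submitters' processing notes name STAR 2.7.10a, Salmon 1.9.0, featureCounts 2.0.1 and build mRatBN7.2. The paper's methods say that Salmon counted uniquely mapped pairs on Ensembl genes, and do not mention featureCounts. Total counts were 11678450 to 13616935, so that 3 counts stood for 0.208 to 0.262 CPM. Software was edgeR 4.0.16 (on limma 3.58.1) and DESeq2 1.42.0 under R 4.3.3, with scipy 1.17.1 and matplotlib 3.10.9 under Python 3.11.15. A comparison used the 6 libraries of its 2 groups with TMM factors, over genes passing filterByExpr, with edgeR's quasi-likelihood test and Benjamini-Hochberg adjustment over all genes tested, and SE is the fold change divided by the root of F. The fits were tested on simulated data.

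Named with all library values were textbook main cortical subunits, and in each comparison the 3 receptor genes with the largest rise and the 3 with the largest fall among those called at a mean of at least 1 CPM. Some genes and ratios so chosen are not reported here, though counts of genes include all that were tested. Auxiliary genes followed the second part of the rule. Genes named where a count was 5 or fewer, or beside a family's count, were chosen after their values were seen. Members, lists and marker genes were chosen with earlier results of these data known. Alternatives were DESeq2, RLE or no size factors, no filter, 10 counts in every library, 1 fit over 12 libraries, a replicate block, a 2-fold threshold, a pseudocount of 0.5 for ratios, and leaving out each library.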

Additional observations from a re-analysis of the deposited data

How the results depend on the processing

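Alternatives were run for 67 log2 fold changes in Model vs Sham, 53 for rt-PA+Acu against rt-PA and 9 in rt-PA+Acu vs Sham. None of these reversed. With an absolute log2 fold change over 1 required as well, 16 receptor genes were called in Model vs Sham, 15 for rt-PA+Acu against rt-PA and 0 in rt-PA+Acu vs Sham. Leaving out 1 library at a time gave 30 to 35 calls in Model vs Sham, 15 to 29 for rt-PA+Acu against rt-PA, 1 to 4 for rt-PA+Acu against Sham and 0 for rt-PA against Model. The replicate block gave 34, 24, 1 and 0 calls in this order. Libraries of the same number did not pair, since correlations of their deviations ran from -0.103 to 0.145, and the receptor calls lost with the block were those of Grik3 in Model vs Sham, of Gabbr1, Gabbr2, Grik5 and Grm2 for rt-PA+Acu against rt-PA, and of Gabrg1 in rt-PA+Acu vs Sham. Library sizes alone lost Grik3 in Model vs Sham and Gabbr1 and Grm2 for rt-PA+Acu against rt-PA, where no filter lost Gabbr1 and the filter of 10 counts lost Grin3b. In Model vs Sham that filter lost Gabrr1, and 1 fit over 12 libraries lost Grik3 and Grm8. For rt-PA+Acu against rt-PA, Grik4 was called with library sizes alone and without rt-PA replicate 2, and Gabra5 with DESeq2, with 1 fit over 12 libraries and without rt-PA replicate 2 or rt-PA+Acu replicate 3. Grin2b was called as lower in Model vs Sham with DESeq2, RLE factors, no filter, the filter of 10 counts and the replicate block, and without Sham replicate 2 or Model replicate 1. Ratios changed sign for some libraries left out, with log2 differences in rt-PA vs Model of -0.12 to 0.21 for Grin2a to Grin2b and -0.29 to 0.20 for Gria1 to Gria2. In rt-PA+Acu vs Sham they ran from -0.23 to 0.13 for Gria1 to Gria2 and from -0.028 to 0.13 for Gabbr1 to Gabbr2, and in Model vs Sham from -0.051 to 0.11 for Gabbr1 to Gabbr2. The cause was not tested. With 3 libraries against 3, a ratio test cannot give a p under 0.1, and the lowest adjusted p among the 20 ratio tests was 0.333. Counts of genes under 1 CPM limit what can be said of them.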
